A study of Mus musculus with 31 samples.

Results

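The 500 widest H3K4me3 domains of mouse hippocampus were selected by width from the peak lists of 4 libraries, and they made up 500 of 11438 regions that met the same conditions. The 4 H3K4me3 lists with more than 10000 peaks, 1 from each group of mice, were merged wherever peaks shared at least 1 base on the autosomes and the X chromosome. This gave 22623 merged regions. A region was kept when all 4 lists had a peak in it, and 78 regions with a peak in 8 or more H3K4me1 lists were dropped. The remaining 11438 regions, called the pool here, were ranked by merged width. Because width in these libraries chose the members, widths and peak values from the same 4 libraries are given as a description, with no test.

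The libraries came from hippocampi of C57BL6 mice killed at 30 days of age. The mice were KMT2D+/+ (wild type) or KMT2D+/bGeo (heterozygous for the bGeo allele of Kmt2d, a model of Kabuki syndrome). Each genotype received either methylcellulose vehicle or 1 mg/kg/day of TAK-418, a compound that blocks the demethylase LSD1, by oral gavage for 2 weeks from 2 weeks of age. Each of the 4 groups had 4 H3K4me3 libraries and 4 H3K4me1 libraries, apart from wild type TAK-418 with 3 H3K4me1 libraries, which makes 31 libraries from 16 mice. The sources used here do not state sex. Whole hippocampus is a mixture of cell types, so fewer cells of a type and less of the mark per cell cannot be told apart in any result below.

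H3K4me3 is laid down at the starts of active genes by the SETD1 and MLL families of methyltransferases, and most active promoters carry a narrow island of it just past the start. At a minority of genes the mark spreads over several kb, and such broad domains are known to lie at genes that define the identity of a tissue and at transcriptional regulators. KMT2D, the product of Kmt2d, mainly writes H3K4 monomethylation at enhancers, and LSD1, the product of Kdm1a, removes mono- and dimethylation from the same lysine.

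The genes under the broadest marking included forebrain transcription factors and genes switched on by neuronal activity, and their promoters are shown because the groups described below turn on them. Each run is the 150 bases before the annotated start, 5′ to 3′ on the gene's strand, from RefSeq sequence of GRCm38.p6, with every CG dinucleotide in capitals. Lhx2 (chr2:38351158-38351307, plus strand) and Bcl11a (chr11:24080545-24080694, plus strand) encode transcription factors of excitatory neurons. Nr4a3 (chr4:48045155-48045304, plus strand) and Junb (chr8:84978749-84978898, minus strand) are immediate early genes. Tnrc18 (chr5:142817663-142817812, minus strand) and Foxo3 (chr10:42276696-42276845, minus strand) held regions that the authors listed as lower in heterozygotes.
Lhx2: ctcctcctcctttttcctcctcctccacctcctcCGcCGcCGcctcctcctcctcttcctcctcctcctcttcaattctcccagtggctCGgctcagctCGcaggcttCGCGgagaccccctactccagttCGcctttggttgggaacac
Bcl11a: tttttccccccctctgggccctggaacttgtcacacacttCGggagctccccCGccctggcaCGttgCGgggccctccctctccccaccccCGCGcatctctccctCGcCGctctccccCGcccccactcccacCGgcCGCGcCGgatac
Nr4a3: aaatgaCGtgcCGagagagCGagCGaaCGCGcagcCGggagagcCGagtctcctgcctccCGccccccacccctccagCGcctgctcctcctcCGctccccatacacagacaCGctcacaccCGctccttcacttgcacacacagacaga
Junb: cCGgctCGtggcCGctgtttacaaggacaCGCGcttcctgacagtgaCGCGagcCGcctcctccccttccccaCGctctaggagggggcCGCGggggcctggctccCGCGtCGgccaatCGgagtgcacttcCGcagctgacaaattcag
Tnrc18: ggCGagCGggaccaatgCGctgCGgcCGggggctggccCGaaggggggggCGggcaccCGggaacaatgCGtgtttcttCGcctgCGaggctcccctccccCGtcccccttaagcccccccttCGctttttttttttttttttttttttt
Foxo3: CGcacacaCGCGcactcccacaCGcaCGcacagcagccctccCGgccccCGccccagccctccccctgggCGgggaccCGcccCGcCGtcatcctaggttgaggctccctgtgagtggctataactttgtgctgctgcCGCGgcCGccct
These runs held 8, 13, 13, 16, 13 and 14 CG dinucleotides, in the order printed. Runs not printed held 6 at Bcl11b, 3 at Meis2, 4 at Nfix, 11 at Glul and 12 at Kmt2d. Of all 21045 promoter windows of coding genes in the RefSeq table, 57.3% held 10 or more CG (a CG reads the same on both strands). Of windows with a start inside a region of the pool outside the domains, 94.1% did. A window ran from 250 bases before to 50 after the start. It is longer than a printed run, so the counts of the runs cannot be set against these shares. The table had an entry for 415 of the 552 genes at the domains (75.2%), under the 80% set for such a check, so a comparison of CG content over all domain genes is void and is not given.

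The domains also covered microRNA genes, 13 in 11 domains, of which 9 matched the RefSeq microRNA table. The microRNA with a domain over a protein-coding neighbourhood at Muc1 and Thbs3 was miR-92b (domain rank 257, chr3:89224503-89228527). Its mature forms, at chr3:89227126-89227147 and chr3:89227165-89227188 on the minus strand, are shown with the seed, bases 2 to 8, in capitals.
mmu-miR-92b-3p: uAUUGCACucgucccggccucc
mmu-miR-92b-5p: aGGGACGGgacguggugcaguguu
Mir124a-1, a gene for the neuronal microRNA miR-124, lay in the domain of rank 9 (chr14:64585695-64593475, 7.78 kb) with its host transcript Mir124a-1hg, and Mir124a-3 lay in the domain of rank 140.

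The 500 domains were 3.47 to 17.1 kb wide, with a median of 4.06 kb, where the median of the whole pool was 1.45 kb. They held 11.6% of the pool's bases, and 100 of them were wider than 5 kb. The last members inside were at H2ac6, a histone gene (3471 bp), and Tmtc2 (3470 bp), and the first regions outside were at Tmem151a (3470 bp, placed after Tmtc2 by position) and Mex3d (3466 bp). The width curve is therefore continuous across the boundary, and membership near it is arbitrary.

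The widest domains, ranks 1 and 2 at chr8:123559392-123576496 (17.1 kb) and chr8:123608068-123624264 (16.2 kb), lay over the cluster of 5S ribosomal RNA genes on chromosome 8. That cluster held 7 domains with 32 rRNA genes in all. The genes of such a cluster are near-identical copies, so how reads were shared among them is uncertain and these widths are uncertain with them. The widest domain at a protein-coding gene was at Tnrc18, a gene for a large nuclear protein with a chromatin-binding domain (rank 3, chr5:142812503-142823092, 10.6 kb). Its paralogue Bahcc1 followed (rank 4, chr11:120229059-120238986, 9.93 kb). Next came Zfp608, for a zinc finger protein (rank 5, 8.44 kb), and Pou3f3, for a POU transcription factor of the forebrain (rank 6, chr1:42692710-42700991, 8.28 kb). Rank 7 lay at Setd1b, for an H3K4 methyltransferase, and its neighbour Rhof (chr5:123137383-123145422, 8.04 kb). Rank 8 lay at Irs2, for an adaptor of insulin signalling (chr8:11002138-11010070, 7.93 kb), rank 9 at Mir124a-1hg and rank 10 over the long noncoding RNA Malat1 (chr19:5796342-5804098, 7.76 kb).

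**Figure D1:**
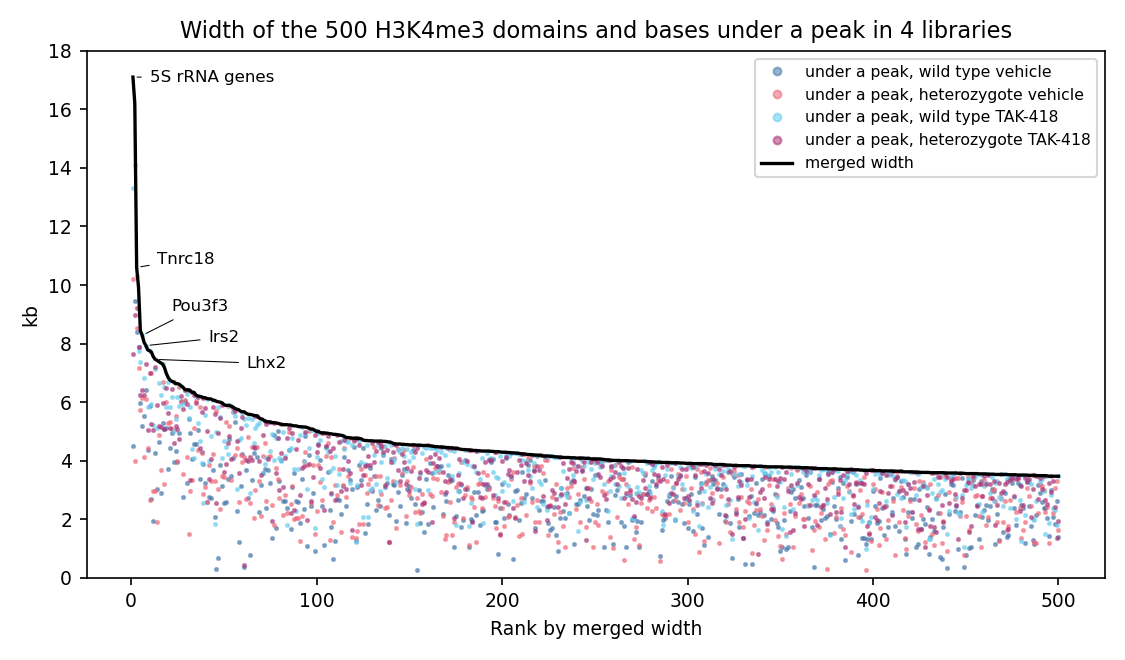
Merged width (black line, kb) of the 500 domains by rank, with the kb under a peak in the longest list of each group (points, 1 library per group, no error). The line falls from 17.1 kb at rank 1 to 3.47 kb at rank 500, and single libraries cover less than the merged width at most ranks.

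No single library marked the domains at full width. Bases under a peak came to 61.2% of the domains' length in the wild type vehicle library, 64.9% in the heterozygote vehicle library, 82.9% in the wild type TAK-418 library and 79.7% in the heterozygote TAK-418 library. With 1 such library per group these 4 values have no replicates and no test. The lists themselves held 13343, 16390, 16750 and 16167 peaks in the same order. The wild type vehicle library had the fewest bases under a peak at 247 domains and the heterozygote vehicle library at 175. The order did not hold at every gene.

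The spread between these 4 libraries differed widely among the members. Across domains the median coefficient of variation of the bases under a peak was 25.1%, and 329 domains were 1 unbroken peak in each of the 4 lists. Bcl11a was covered almost evenly, with 6.05 kb under a peak in wild type vehicle, 6.09 kb in heterozygote vehicle, 6.40 kb in wild type TAK-418 and 6.43 kb in heterozygote TAK-418. Lhx2 was uneven, with 4.26, 2.96, 7.14 and 7.20 kb in the same order. Kmt2d itself had a domain (rank 376, chr15:98869068-98872791, 3.72 kb) that was covered in all 4 libraries, with 3.63, 3.22, 3.54 and 3.56 kb. Kdm1a, the gene of the drug's target, had a region of 1.41 kb at rank 6003 and is not a member.

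The peaks in the domains were broad without a higher median fold enrichment than those in the rest of the pool. The median fold enrichment of the strongest peak in a domain, the authors' value over local background, was 5.27 in wild type vehicle, 4.29 in heterozygote vehicle, 6.16 in wild type TAK-418 and 5.79 in heterozygote TAK-418. In the rest of the pool the medians were 5.52, 4.37, 6.64 and 6.25, a little above the domains in each library. The authors give this value for a whole broad peak, with no profile along it. The height of the mark within a domain was therefore not tested.

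Of the 500 domains, 457 (91.4%) lay at a protein-coding gene, with an end of the gene within 2 kb or an annotated start inside, beside 92% of the pool. They were tied to 552 genes, 2.55% of the 21631 coding genes on these chromosomes, or 4.69 of every 100 genes with any region of the pool. The other 43 domains included the 7 over 5S rRNA genes, 2 over tRNA clusters, 13 that overlapped long noncoding RNA genes such as Malat1, and 19 inside the body of a coding gene. Chromosome X held 4 domains (0.8%), beside 2.19% of the pool.

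The domains reached mainly into the gene. Of the 500, 297 held the start of exactly 1 coding gene in the RefSeq promoter table, which had no entry for many genes and gives no value for the rest. Reach was measured from the most upstream annotated start inside, also in the rest of the pool. Where a gene has more than 1 start inside, this lengthens the downstream side. Its effect on the contrast with the pool was not tested. In these 297 the median reach was 3.07 kb downstream of the start and 1.03 kb upstream, and 252 (84.8%) reached farther downstream. In the rest of the pool the medians were 0.927 kb and 0.406 kb, and 88.1% of 7122 regions reached farther downstream. Irs2 showed the common form, with 6791 bp downstream and 1141 bp upstream. Bcl11a was the reverse, with 1661 bp downstream and 4765 bp upstream, and Tnrc18 was nearly symmetric, with 5159 and 5430 bp.

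By gene list, the domains were most frequent at markers of excitatory hippocampal neurons. Of 30 such genes, 14 (46.7%) had a domain and 23 had any region of the pool. Among the widest were Lhx2 (rank 13, 7.46 kb), Bcl11b (rank 16, 7.34 kb) and Meis2 (rank 26, 6.61 kb), all for transcription factors, followed by Camk2a, for the alpha subunit of a calcium-dependent kinase abundant at synapses (rank 28, 6.51 kb), and Bcl11a (rank 29, 6.43 kb). Emx2 and Emx1, for homeobox factors of the dorsal forebrain, had domains of 5.30 and 4.69 kb. Prox1, for a factor that marks dentate granule cells, was near the boundary (rank 479, 3.51 kb). Synapse genes had a domain in 5 of 32 cases, at Camk2b (4.92 kb), Dlg4, for the scaffold PSD-95 (4.10 kb), Syt1, Grin2a and Shank3.

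Immediate early genes, which neurons switch on within minutes of activity, had a domain in 9 of 21 cases, and all 21 had a region of the pool. These were Egr3 (rank 21, 6.75 kb), Nr4a3 (rank 27, 6.55 kb), Junb (rank 80, 5.26 kb), Fosl2 (rank 102, 4.96 kb), Ier2, Egr1, Fos, Jun and Egr2. Nr4a3 was covered evenly, with 6.03 kb in wild type vehicle, 6.02 kb in heterozygote vehicle, 6.55 kb in wild type TAK-418 and 6.21 kb in heterozygote TAK-418. Fos was uneven, with 1.05, 4.04, 3.19 and 2.83 kb in the same order.

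Markers of other hippocampal cell types had a domain less often, and apart from neural progenitors fewer of them had any region of the pool. Astrocyte genes had 4 of 18, at the nuclear factor genes Nfib (6.38 kb) and Nfix (6.15 kb), at Sox9 (4.06 kb) and at Glul, for glutamine synthetase (3.73 kb). Inhibitory neurons had 1 of 22 (Sox6), the oligodendrocyte lineage 1 of 16 (Sox8, 5.41 kb), microglia 1 of 16 (Sall1, 5.32 kb), and neural progenitors 3 of 24 (Hes5, Sox4 and Sox2). No domain lay at the 16 vascular, 10 choroid plexus and ependyma or 10 blood cell genes. Any region of the pool lay at 10 astrocyte, 9 inhibitory neuron, 6 oligodendrocyte, 3 microglia and 19 progenitor genes. It lay at 8 vascular, 3 choroid plexus and ependyma and 1 blood cell genes. Among genes with a region, 60.9% of excitatory neuron, 42.9% of immediate early, 40% of astrocyte and 33.3% of microglia genes had a domain. For progenitor genes this was 15.8%. Several of these genes, Nfib, Nfix, Sox4 and Sox8 among them, are known to be active in more than 1 cell type. No list was checked for activity in other cell types, and most excitatory neuron genes with a domain were transcription factor genes.

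Genes of general cell functions had the mark without the width. Of 80 ribosomal protein genes, 72 had a region of the pool and 0 had a domain. Of 96 genes of the mitochondrial respiratory chain, 81 had a region and 2 had a domain, Cox4i1 (3.67 kb) and Atp5d, which lies beside Midn in the domain of rank 34 (6.33 kb). Transcription factor families, by symbol, had a domain at 63 of 494 genes (12.8%), and ion channel families, also by symbol, at 5 of 136. These were the voltage-gated Kcna1 (4.19 kb) and Cacna1c (3.59 kb), the calcium-activated Kcnn3 (3.74 kb) and the inward rectifiers Kcnj4 (3.66 kb) and Kcnj11 (3.62 kb). Hox genes had 0 of 39 and clustered protocadherins 0 of 57, and few or none of these had any region of the pool (0 and 4). Genes tied to H3K4 methylation were represented by Setd1b (8.04 kb), Kmt2e (4.75 kb), Kmt2a (4.35 kb) and Kmt2d, 4 of 20 genes of the list of H3K4 methyltransferases and their complexes, and by Gse1 (5.30 kb), Phf21b (3.69 kb) and Kdm2b (3.52 kb), 3 of 20 genes of H3K4 demethylases and the LSD1-CoREST complex. These lists were made with earlier results of these data known, and their counts are descriptions.

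**Figure D2:**
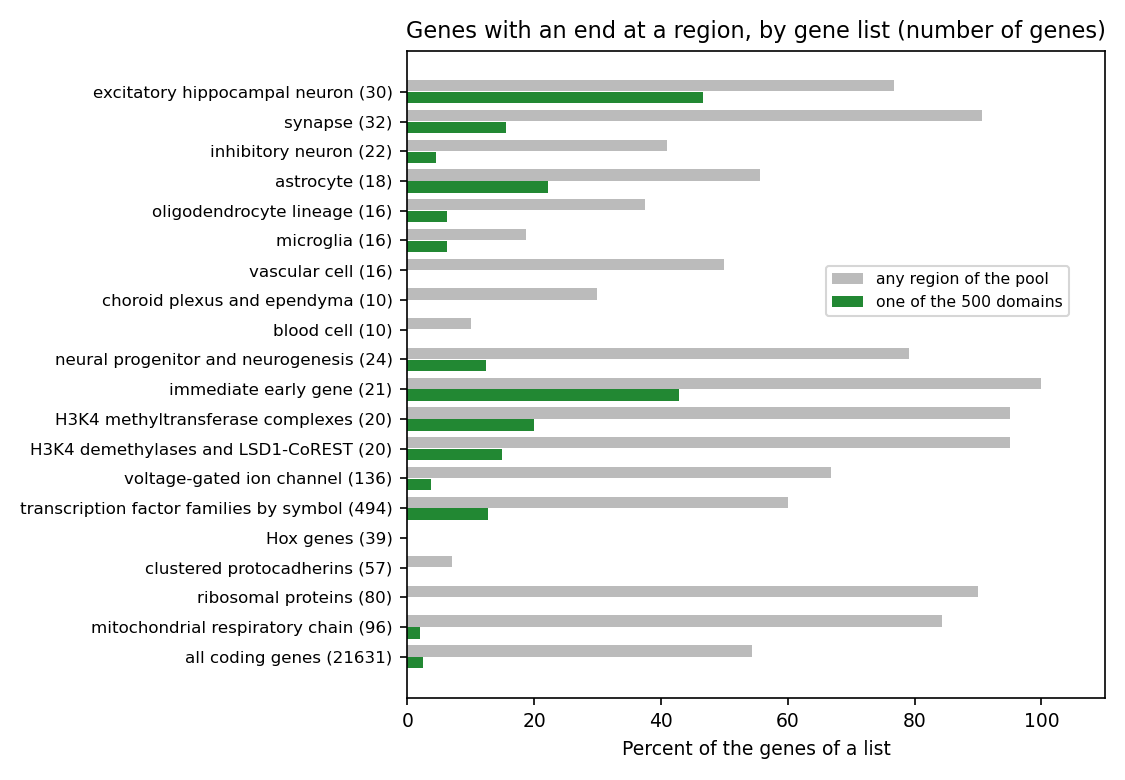
Percent of the genes of each list (number of genes in brackets) with an end at any region of the pool (grey) or at one of the 500 domains (green), no error. Excitatory neuron and immediate early genes reach 46.7% and 42.9% for the domains, where ribosomal protein genes reach 0% with 90% in the pool.

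The 12 H3K4me3 libraries that the rule did not use had far shorter lists, of 302 to 2281 peaks, and showed few domains. A peak was found in 14, 168 and 57 of the 500 domains in the wild type vehicle libraries and in 9, 11 and 3 in the heterozygote vehicle libraries. With TAK-418 the numbers were 11, 3 and 109 in wild types and 4, 0 and 9 in heterozygotes. The wild type vehicle values all lay above those of both heterozygote groups, and the wild type TAK-418 values overlapped those of every other group.

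Heterozygote vehicle libraries had 7.67 ± 4.16 domains with a peak and wild type vehicle libraries 79.7 ± 79.5 (SD, n = 3 per group), a difference of −72 without overlap (two-sided exact permutation p = 0.1, adjusted p = 0.2 over 4 comparisons). With 3 libraries against 3, an exact p of 0.1 is the smallest possible, so this design cannot pass 0.05. Without the wild type vehicle library that had 168 domains the difference was −27.8. Heterozygote TAK-418 libraries, at 4.33 ± 4.51, differed from wild type vehicle by −75.3, also without overlap (exact permutation p = 0.1, adjusted p = 0.2), and by −31.2 without the same wild type library. Against their own vehicle group they differed by −3.33 (exact permutation p = 0.5). In wild types TAK-418 gave 41.0 ± 59.0, a difference of −38.7 (exact permutation p = 0.5), which became 5.5 without the wild type vehicle library that had 168. The kb of domain under a peak followed the same order, with 6.99, 120.1 and 29.7 kb in wild type vehicle and 5.19, 4.92 and 2.22 kb in heterozygote vehicle libraries (exact permutation p = 0.1, adjusted p = 0.2). The effect of TAK-418 on the number of domains was not shown to differ between genotypes (treatment permuted within genotype, exact p = 0.565).

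Between the vehicle groups the whole lists differed too, not the domains alone. The same 3 wild type vehicle lists held 715 to 2281 peaks and the 3 heterozygote vehicle lists 305 to 499. Their means were 830 and 64.7 regions of the pool with a peak. In heterozygotes, TAK-418 lists held 359 to 536 peaks, which overlaps vehicle. Their mean was 34.7 peaks above vehicle, while the mean number of domains with a peak differed by −3.33. The means for domains and for list length therefore did not move together in every comparison. Of every 100 regions of the pool with a peak, 9.28 to 12.4 were domains in wild type vehicle and 10 to 12.9 in heterozygote vehicle libraries (exact permutation p = 0.5), ranges that overlap. In the TAK-418 libraries this share was 7.10 to 9.23 in wild types and 0 to 7.63 in heterozygotes, below the vehicle libraries of the same genotype without overlap (exact permutation p = 0.1 for each, adjusted p = 0.133). This share was added after the counts were seen, and the heterozygote TAK-418 library with 0 had a peak in 6 regions of the pool only.

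**Figure D3:**
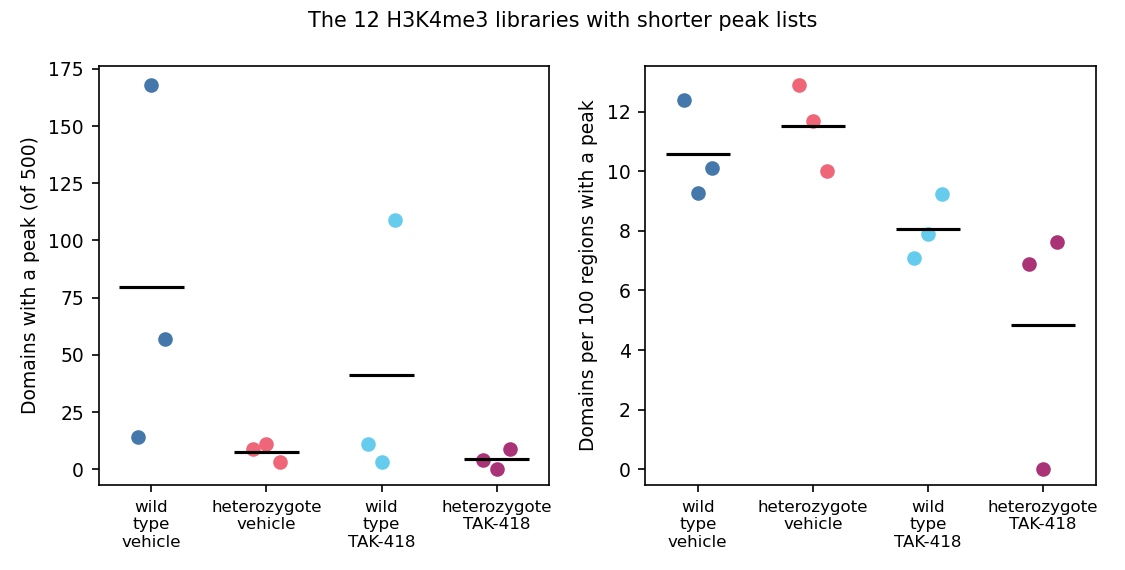
Number of the 500 domains with a peak (left) and domains per 100 pool regions with a peak (right) in each of the 12 libraries the rule did not use, with lines at group means, n = 3 per group. Wild type vehicle libraries have 14 to 168 domains with a peak and heterozygote vehicle libraries 3 to 11, while the shares on the right overlap between these groups.

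In these shorter lists 253 domains (50.6%) had a peak in at least 1 library, beside 27.9% of the pool. The domains are wider than most of the pool, so a peak of either mark has more bases to fall in. Shares by length were not computed for the shorter lists or for the H3K4me1 lists. The most recurrent domain was a cluster of tRNA genes on chromosome 1 (rank 49, chr1:171068407-171074388, 5.98 kb), with a peak in 9 of 12 lists. It was followed by the 5S rRNA domain of rank 2, in 6 lists, and by Arid1a, for a subunit of the BAF chromatin remodelling complex, in 5 (rank 425, chr4:133751416-133755020). Ppp1r9b, for the dendritic spine protein spinophilin (rank 36, 6.21 kb), and Maz, for a zinc finger factor (rank 119, 4.77 kb), had a peak in 4 lists each. A peak of H3K4me1 lay in 5 domains (1%), beside 0.254% of the pool, after the rule had removed regions with many, and the H3K4me1 lists held 88 to 456 peaks each. None of those 5 lay at a coding gene, and they included ranks 1, 2 and 49.

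The authors' differential lists give short regions with a −log10 p of at least 1.3 and 1 score per library, and they overlapped 225 of the 500 domains (45%), beside 31.6% of the pool and 42.8% of the next 500 regions by width. A total of 275 domains had no listed region in any of the 4 H3K4me3 lists, 103 had one in 1 list and 10 (2%) in all 4, beside 0.629% of the pool. The comparisons with wild type vehicle share those libraries, so their values are set side by side only. The scores of a group include the library with the longest list, which also chose the members. The rule asked for a peak in every group but ranked by merged width. Of that width the TAK-418 libraries covered 82.9% (wild type) and 79.7% (heterozygote), and the vehicle libraries 61.2% and 64.9%. How this choice bears on the shares below was not tested.

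In heterozygote vehicle against wild type vehicle mice, 85 domains (17%) held a region listed as lower and 6 (1.2%) a region listed as higher. Over the pool the shares were 12.5% lower and 0.437% higher. In heterozygote TAK-418 against wild type vehicle mice, 115 domains (23%) held a lower region, beside 16.4% of the pool, and 5 (1%) a higher one, beside 1.05%. TAK-418 in wild types gave both directions, with 70 domains (14%) lower, beside 7.78% of the pool, and 89 (17.8%) higher, beside 10.9%. TAK-418 in heterozygotes gave 31 domains (6.2%) lower, beside 3.86%, and 29 (5.8%) higher, beside 3.73%. When only peaks with a −log10 q of at least 5 were merged, which chose mostly other regions, the lower shares were 37.4%, 54.4%, 22.2% and 18.8% in the order given here. The share over all regions of that stricter merge was not computed, so these shares cannot be set beside those of the pool. Of the 92 listed regions of the genotype comparison inside domains, 86 had a negative log2 difference in limma, and 58 after each score was divided by the median of its position.

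A wide region has more bases for a listed region to fall in, and the shares by length ran the other way. Listed lower regions of the genotype comparison covered 2.44% of the domains' bases and 3.92% of the pool's. The corresponding shares were 3.63% and 5.27% for heterozygote TAK-418 against wild type vehicle, and 2.42% and 3.50% for the regions higher with TAK-418 in wild types. Regions ranked 501 to 1000 had shares near those of the domains, for example 16.6% lower in the genotype comparison.

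**Figure D4:**
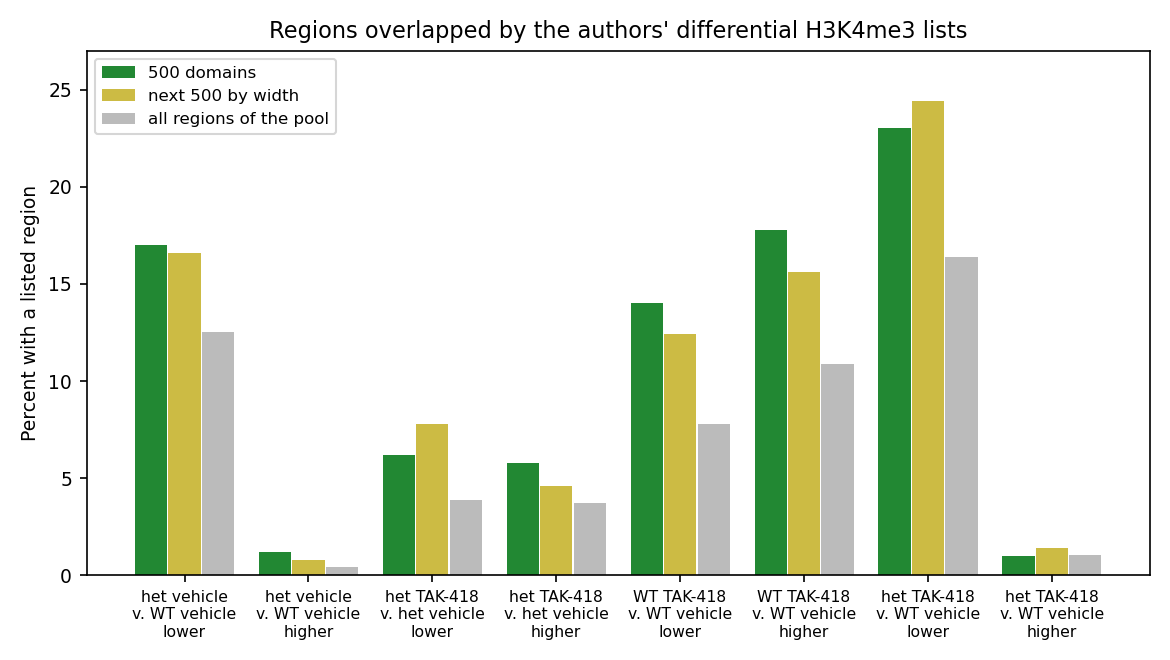
Percent of the 500 domains (green), of ranks 501 to 1000 (yellow, labelled next 500 by width) and of all 11438 regions of the pool (grey) overlapped by a region of each authors' list and direction, where lower and higher refer to the group named first, het is heterozygote and WT wild type, no error. The domains have 17% lower and 1.2% higher for heterozygote against wild type vehicle mice, and ranks 501 to 1000 stand close to them.

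The listed regions were short stretches near the start and did not span the domains. Their median width inside domains was 500 to 550 bp. Of the 86 lower regions of the genotype comparison, 59 lay in domains with annotated starts of exactly 1 coding gene. Distances were taken from the most upstream of these starts, which can only shift them downstream. The centres of the 59 lay a median of 601 bp downstream of it, and 55 of them were downstream. The higher regions of TAK-418 in wild types had a median of 452 bp downstream over 64 regions. The part of a domain nearer to its edges than to its middle held 16.1% to 37.9% of the listed regions, by list and direction.

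Tnrc18 led the regions lower in heterozygotes. At chr5:142816901-142817450, just downstream of the start printed above, scores were 89, 135, 167 and 159 in wild type vehicle and 15, 100, 78 and 1 in heterozygote vehicle libraries. All but 1 of the heterozygote values lay under the lowest wild type value, so the groups overlapped. The means were 138 ± 35.1 and 48.5 ± 48.0 (SD, n = 4 per group), a ratio of 0.353 (two-sided exact permutation p = 0.0571). The authors' deposited table gives this region a −log10 p of 8.6.

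Foxo3, for a forkhead factor of stress and survival responses, was the second. At chr10:42275051-42275950 the scores were 88, 148, 218 and 269 in wild type vehicle and 55, 179, 41 and 40 in heterozygote vehicle libraries. Of the heterozygote libraries 3 were under every wild type value and 1 stood among them (ratio 0.436, exact permutation p = 0.0857). Ube2ql1, for a ubiquitin-conjugating enzyme, had 180 ± 45.0 and 80.8 ± 44.7 at chr13:69739001-69739950 (exact permutation p = 0.0571, n = 4). Adcy9, for an adenylate cyclase, had 221 ± 85.5 and 116 ± 89.1 at chr16:4419301-4420350 (exact permutation p = 0.143, n = 4).

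The groups did not overlap at 3 of the 92 regions of this list inside domains (3.26%), beside 2.03% of all 2015 listed regions. These 3, named here because of that result, were all lower in heterozygotes. Vegfa, for a growth factor of blood vessels and neurons, had 115, 241, 199 and 122 in wild type vehicle and 95, 97, 69 and 64 in heterozygote vehicle libraries at chr17:46030401-46031200 (ratio 0.480). Pgbd5, for a transposase-derived protein of the brain, had 103, 108, 190 and 165 against 85, 59, 56 and 45 at chr8:124433751-124434450 (ratio 0.433). Mn1, for a transcriptional coregulator, had 68, 69, 106 and 94 against 44, 60, 29 and 47 at chr5:111417551-111417950 (ratio 0.534). The exact permutation p was 0.0286 at each, unadjusted, in a list already chosen by the authors' p, and groups of 4 allow none smaller.

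The 6 regions higher in heterozygotes had lower −log10 p in the authors' table (1.73 to 2.33 for the 4 named) and overlapping groups. Ptch1, for the receptor of Sonic hedgehog, scored 77.5 ± 57.7 in wild types and 119 ± 46.6 in heterozygotes (exact permutation p = 0.371, n = 4). Itm2b, for a membrane protein linked to familial dementia, had 80.8 ± 62.8 and 119 ± 53.0 (exact permutation p = 0.371, n = 4). Brinp1, for a neuronal cell-cycle inhibitor, had 53.2 ± 18.4 and 81.0 ± 27.4 (exact permutation p = 0.114, n = 4). A region of the tRNA cluster of rank 49 had 41.0 ± 9.20 and 71.0 ± 48.4 (exact permutation p = 0.286, n = 4).

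With TAK-418 in wild types, the tRNA cluster had the largest −log10 p in the authors' table among regions inside domains. At chr1:171071701-171073700 the scores were 366, 475, 261 and 365 with vehicle and 497, 585, 807 and 648 with TAK-418, with no overlap. The means were 367 ± 87.4 and 634 ± 131 (n = 4), a ratio of 1.73 (exact permutation p = 0.0286), and the authors' deposited table gives a −log10 p of 14.3. It was the 1 region of 165 inside domains without overlap (0.606%), beside 0.54% of the list's 2780 regions. The tRNA genes of a cluster can resemble each other and copies elsewhere, so the reads behind these scores may be shared among copies.

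The next regions higher with TAK-418 lay at genes for cell-surface receptors and a transcription factor. Adrb1, for the beta-1 adrenergic receptor, had 59, 64, 180 and 19 with vehicle and 114, 168, 283 and 139 with TAK-418 at chr19:56722251-56722900. Only the highest vehicle value exceeded any treated value (ratio 2.19, exact permutation p = 0.114). Fzd2, for a Wnt receptor, had 24.5 ± 21.4 and 82.2 ± 65.4 (ratio 3.36, exact permutation p = 0.114, n = 4). Zic5, for a zinc finger factor of neural development, had 79.5 ± 47.6 and 164 ± 70.2 (exact permutation p = 0.143, n = 4).

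The regions lower with TAK-418 in wild types overlapped more. Bahcc1, the second-widest domain at a coding gene, had 152, 398, 487 and 318 with vehicle and 146, 61, 409 and 228 with TAK-418 at chr11:120233751-120235150 (ratio 0.623, exact permutation p = 0.286). Smarca2, for an ATPase of the BAF complex, had 178 ± 84.8 and 91.5 ± 88.3 (exact permutation p = 0.229, n = 4). Ddit4, for a stress-induced inhibitor of mTOR, had 209 ± 123 and 113 ± 98.3 (exact permutation p = 0.229, n = 4). Agap2, for a GTPase-activating protein of neurons, had 209 ± 156 and 119 ± 85.6 (exact permutation p = 0.371, n = 4).

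In heterozygotes, TAK-418 against vehicle gave 60 listed regions inside domains and none without overlap (0 of 60, beside 0.35% of the list's 1715 regions). Mef2d, for an activity-dependent factor of neurons, was listed highest. Its scores at chr3:88142651-88143200 were 54, 115, 9 and 26 with vehicle and 66, 55, 273 and 58 with TAK-418, with 1 treated value far above the other 7 (ratio 2.22, exact permutation p = 0.4). Chst2, for a sulfotransferase, had the same form, with 35, 93, 2 and 23 against 48, 32, 253 and 24 (exact permutation p = 0.543). Brd2, for a BET bromodomain protein, had 89.5 ± 42.3 and 162 ± 109 (exact permutation p = 0.2, n = 4). On the lower side, Zfp236 had 144 ± 78.7 with vehicle and 73.0 ± 90.5 with TAK-418 (exact permutation p = 0.314, n = 4). Taf4, for a subunit of the general factor TFIID, had 90.0 ± 56.2 and 37.8 ± 34.6 (exact permutation p = 0.229, n = 4), and Zcwpw1, for a reader of methylated H3K4, had 68.0 ± 36.6 and 26.8 ± 34.5 (exact permutation p = 0.171, n = 4). The domain of rank 489, over the noncoding gene 6530402F18Rik, held a listed region in each direction, with 51.2 ± 35 and 111 ± 96.5 at the higher and 124 ± 38.6 and 62.5 ± 74.4 at the lower region (n = 4).

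Treated heterozygotes against wild type vehicle mice had 126 lower and 5 higher regions inside domains, none without overlap (0 of 131, beside 0.404% of the list's 2722 regions). Another region of Brd2, at chr17:34120151-34121900, was listed first, with 211, 235, 772 and 321 in wild type vehicle and 73, 54, 537 and 148 in heterozygote TAK-418 libraries. Of the treated values 3 lay under every wild type value and 1 stood above 3 of them (ratio 0.528, exact permutation p = 0.371), while the authors' deposited table gives a −log10 p of 11.5. Agap2 had 206 ± 151 and 103 ± 99.6 (exact permutation p = 0.229, n = 4), Sox12, for a SoxC factor, 142 ± 81.3 and 61.2 ± 50.2 (exact permutation p = 0.2, n = 4), and Zmiz1, for a coactivator, 169.8 ± 81.1 and 81.8 ± 47.7 (exact permutation p = 0.143, n = 4). Of the 5 higher regions, 4 were at Ppp1r9b (90.5 ± 57.8 and 138 ± 101), Bhlhe41, for a circadian repressor (57.5 ± 19.0 and 96.2 ± 41.3), Arhgap21 (86.5 ± 11.9 and 126 ± 85.2) and the tRNA cluster (94.0 ± 31.6 and 138 ± 51.6), with exact permutation p of 0.171 to 0.543 (n = 4). The other, at chr17:34118351-34119050, lay in the domain of Brd2 that also held the lower region listed first (118 ± 119 and 153 ± 100.3, exact permutation p = 0.6, n = 4).

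**Figure D5:**
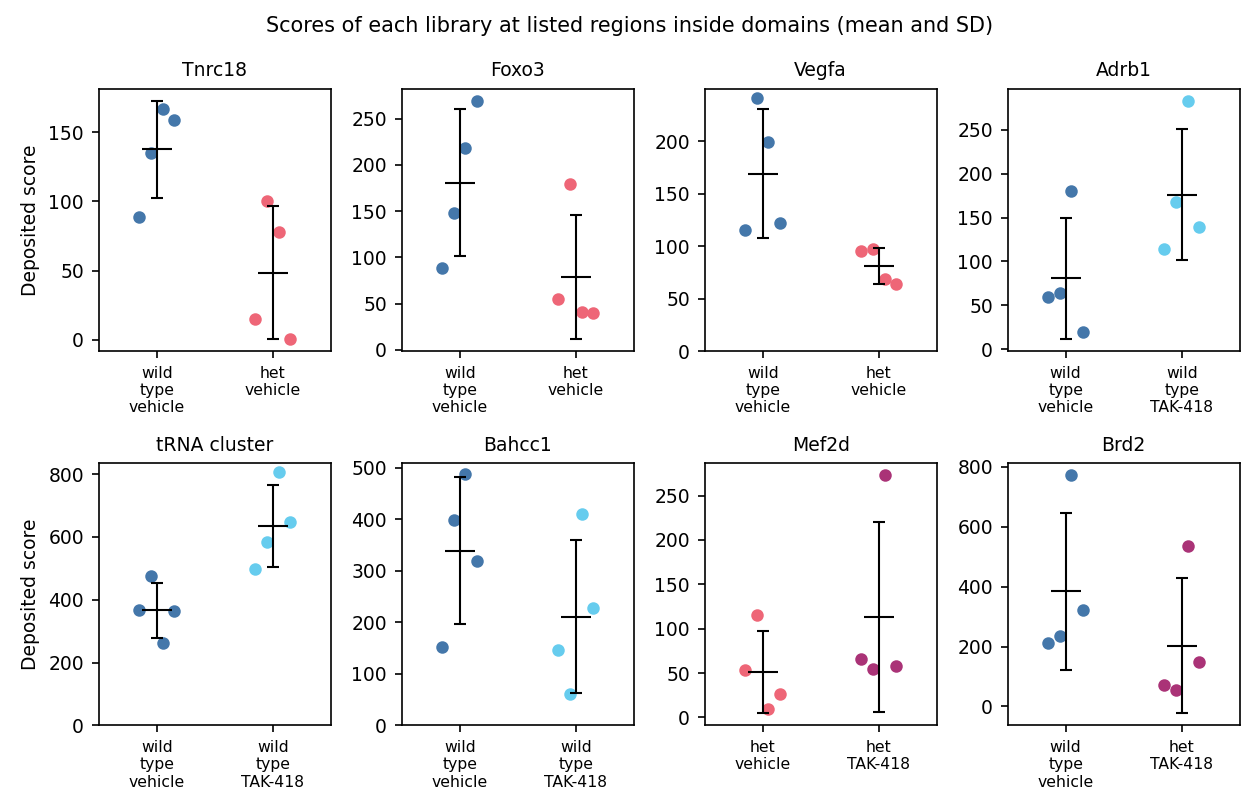
Deposited scores of each library (points, authors' normalized units, linear axes from 0 or below) with mean and SD (bars, n = 4 per group) at listed regions of 8 domains, het meaning heterozygote. The groups separate at Vegfa and the tRNA cluster and overlap at the other 6.

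By gene list, a listed region in any of the 4 lists was held by 3 of the 14 domain genes of excitatory neurons, 4 of 9 immediate early genes, 1 of 5 synapse genes, 1 of 4 astrocyte genes and 1 of 3 progenitor genes, beside 45% of all domains. Of the 14 excitatory neuron genes with a domain, Nr3c2, for the mineralocorticoid receptor, was lower in both comparisons of heterozygotes with wild type vehicle (72.2 ± 11.9 and 47.5 ± 38.5 with vehicle, n = 4), and Lhx2 and Man1a were listed as higher with TAK-418 in wild types. Lhx2 had 65, 65, 99 and 39 with vehicle and 49, 95, 207 and 63 with TAK-418 (exact permutation p = 0.486). Of the 9 immediate early genes, Junb was listed as lower in treated heterozygotes, with 50, 105, 136 and 97 in wild type vehicle and 22, 26, 81 and 24 in heterozygote TAK-418 libraries (exact permutation p = 0.0571). With TAK-418 in wild types, Junb (109 ± 41.7 and 64 ± 38, exact permutation p = 0.2, n = 4) and Nr4a3 (63 ± 28.1 and 30 ± 31.4, exact permutation p = 0.2, n = 4) were listed as lower and Fosl2 (65.5 ± 64 and 131 ± 74.2, exact permutation p = 0.314, n = 4) as higher. Shank3 (76.5 ± 19.7 and 131 ± 95.6) and Sox4 (148 ± 84.3 and 239.8 ± 169) were listed as higher in the same comparison (exact permutation p = 0.343 and 0.457, n = 4). Jun was listed as lower in both heterozygote groups against wild type vehicle and, in a neighbouring region, as higher with TAK-418 in wild types. Glul was listed as lower in heterozygote vehicle mice (131 ± 72.6 and 84.2 ± 42.3, exact permutation p = 0.343, n = 4), in treated heterozygotes against wild type vehicle and in treated against vehicle heterozygotes.

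Of the genes listed with H3K4 methyltransferases, 4 of 4 with a domain held a listed region in some list, beside 45% of all domains. Within the Kmt2d domain, a region at chr15:98870951-98871650 had 55, 152, 175 and 176 in wild type vehicle and 97, 182, 15 and 62 in heterozygote vehicle libraries, with overlap (exact permutation p = 0.371). The same domain was listed as lower in treated heterozygotes against wild type vehicle (202 ± 85 and 132 ± 121, exact permutation p = 0.429, n = 4). With TAK-418 in wild types it held a lower region (113 ± 68.7 and 60.2 ± 45.7, exact permutation p = 0.314, n = 4) and, next to it, a higher one (206 ± 68.6 and 286 ± 197, exact permutation p = 0.6, n = 4). Kmt2e was listed as lower in heterozygote vehicle mice (116 ± 67 and 72.2 ± 40.7, exact permutation p = 0.343, n = 4) and in treated heterozygotes (131 ± 79.1 and 92.5 ± 67.8, exact permutation p = 0.486, n = 4), and as higher with TAK-418 in wild types (61 ± 34.3 and 88.8 ± 70.4, exact permutation p = 0.571, n = 4). Kmt2a was listed as higher with TAK-418 in heterozygotes (57.0 ± 30.0 and 90.2 ± 85.5, exact permutation p = 0.629, n = 4) and in wild types (87.0 ± 42.7 and 119 ± 87.8, exact permutation p = 0.6, n = 4). Setd1b, in the domain it shares with Rhof, was listed as lower with TAK-418 in wild types (71.5 ± 45.8 and 46.2 ± 49.7, exact permutation p = 0.486, n = 4) and in treated heterozygotes (108 ± 37.6 and 72.8 ± 67.5, exact permutation p = 0.4, n = 4). Of the demethylase genes, Gse1, for a component of the LSD1-CoREST complex, was listed as higher with TAK-418 in wild types (58.0 ± 20.4 and 108 ± 61.1, exact permutation p = 0.171, n = 4).

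The authors deposited 4 further differential lists that name no mark and were taken here as H3K4me1, with 2520 regions in all. The domain at Rnf220, for a ubiquitin ligase of neural development (rank 331), was the 1 domain (0.2%) with such a region, beside 13 regions of the pool (0.114%).

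When each list was tested as a whole with limma, 0% of its regions passed an adjusted p of 0.05, and therefore 0 regions inside domains did in any of the 4 comparisons. The lists hold only regions that the authors had kept at a −log10 p of at least 1.3. The limma and exact permutation p-values at listed regions are therefore not calibrated and are given beside the whole list as a description. At an unadjusted p under 0.05, 3 of 92 regions inside domains passed in the genotype comparison, 0 of 60 for TAK-418 in heterozygotes, 2 of 165 for TAK-418 in wild types and 3 of 131 for treated heterozygotes against wild type vehicle, beside 66 of 2015, 3 of 1715, 49 of 2780 and 104 of 2722 over the whole lists. Tnrc18 had a limma log2 difference of −2.58 (SE 0.96, unadjusted p = 0.0158, adjusted p = 0.570). In simulated lists of these sizes with 200 regions raised by a log2 of 2, the same step recovered 33, 5, 13 and 5 of 200 after adjustment, so it could miss changes of that size.

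The median ratio at the listed regions inside domains was close to that of the whole list in each direction. It was 0.609 for the 86 lower regions of the genotype comparison, beside 0.617 for all 1733. It was 1.49 for the 92 regions higher with TAK-418 in wild types, beside 1.47 for 1769, and 0.641 for the 126 lower regions of treated heterozygotes against wild type vehicle, beside 0.651 for 1972. Within each group 1 of the 4 unnamed score positions was the highest at most of these regions. In treated heterozygotes against wild type vehicle this position was the highest at 130 of 131 regions in the heterozygote TAK-418 group, with a median score of 222 where the other 3 positions had 50. Its part in the listed differences was not tested by region, and the counts without it are given under the processing settings below.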

How the data were processed

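Peaks were deposited by the authors as 1 list per library in the layout of MACS2 broad peaks. Per the labels' protocols these are ChIP-seq libraries of H3K4me3 and H3K4me1, and the submitters' processing notes name mm10, MACS2, MACS and bedtools, with no version. Aligner, control library and peak threshold are not given in the sources used here. Per deposited peak the authors give fold enrichment (ratio) with −log10 p and −log10 q. The authors' 4 differential H3K4me3 lists give a −log10 p per region and 1 whole-number score per library, of unstated normalization and tool. These scores do not name their library and were treated as unordered replicates. The lists hold no read counts, so depth and the precision of a single peak are unknown.

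Members were found by the rule at the head of the report. The members, gene lists and tests were chosen with earlier results of these data known. Genes came from RefSeq GRCm38.p6, the assembly that mm10 names, and a gene was tied to a region by an end within 2 kb or an annotated start inside. The promoter table held 17274 of 21631 coding genes. Named were the 10 widest domains, the 2 regions on each side of the boundary, the 4 lower and 4 higher regions inside domains with the largest authors' −log10 p in each list, the 5 domains most recurrent in the other 12 lists, up to 4 widest per gene list, and Kmt2d and Kdm1a. Others are named where the text says why, or as members of a gene list. The values of 1 named member are not reported here.

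Libraries not used by the rule were compared by exact two-sided permutation, with Benjamini-Hochberg adjustment across 4 comparisons. Single regions were compared by exact permutation of the mean score. Whole lists were tested with limma 3.58.1 (R 4.3.3) on log2(score + 1), with a trend and Benjamini-Hochberg adjustment over the list, after testing on simulated data. Other steps used Python 3.11.15 with pandas 2.3.3, numpy 2.4.6, matplotlib 3.10.9 and scipy 1.17.1. The labels name mice by number, and nothing else ties the mice of different groups.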

Additional observations from a re-analysis of the deposited data

Results flagged for a closer look

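At 4 of the 64 groups of 4 scores behind the 32 listed regions chosen by the authors' p, 1 library stood apart from the other 3 by Dixon's test. Chance alone sets about 1 in 20 groups apart. In heterozygote TAK-418 against heterozygote vehicle, the high treated score of 273 at Mef2d stood against 55 to 66 in the other 3 treated libraries, and 253 at Chst2 against 24 to 48. At Zmiz1, in heterozygote TAK-418 against wild type vehicle, the low score of 49 in a wild type vehicle library stood against 196 to 220. At Foxo3, in heterozygote against wild type vehicle, the high score of 179 in a heterozygote vehicle library stood against 40 to 55.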

How the results depend on the processing

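No paired analysis was possible because the labels give mice numbers that are not shared between groups and the scores name no library. The widths depend on the merging. Of the 500 domains, 260 (52%) overlapped a member when regions were ranked by the bases common to all 4 lists, 430 (86%) when gaps of 1 kb were bridged, and 88 (17.6%) when peaks with a −log10 q of at least 5 were merged. Leaving out 1 of the 4 lists kept 414 (wild type TAK-418), 424 (heterozygote TAK-418), 449 (heterozygote vehicle) or 476 (wild type vehicle). Percent of domains with a listed region moved by over 1.5 times as follows. With peaks of −log10 q of at least 5, lower regions came to 37.4 (genotype), 18.8 (treated against vehicle heterozygotes), 22.2 (treated against vehicle wild types) and 54.4 (treated heterozygotes against untreated wild types), and higher ones to 3 and 2.2 in the first and last. The share over all regions of that stricter merge was not computed. With listed regions of −log10 p of at least 2, the genotype comparison had 0.6 higher, TAK-418 in heterozygotes 4 lower, and TAK-418 in wild types 8 lower and 10.2 higher. By common bases, TAK-418 in heterozygotes had 10.4 lower, and treated heterozygotes against wild type vehicle 34.6 lower and 2 higher, the last also 2 among the 250 widest. The cause was not tested. Without the wild type vehicle library with 168 domains, TAK-418 in wild types reversed to a difference of 5.5 domains (exact permutation p = 1) and 9.11 kb. Leaving out 1 library at a time, the differences in domains ranged from −105 to −27.8 (genotype), −5.67 to −1.17 (treated against vehicle heterozygotes), −72.7 to 5.5 (treated against vehicle wild types) and −108 to −31.2 (treated heterozygotes against untreated wild types). In kb the ranges were −70.8 to −14.2, −2.58 to −0.393, −48 to 9.11 and −72.4 to −15.8. By limma, 0 regions inside domains passed an adjusted p of 0.05 in any setting run. Without the score position most often highest in both groups, a setting chosen after seeing the data, 17 of 92, 7 of 60, 30 of 165 and 67 of 131 passed an unadjusted p of 0.05, with the comparisons ordered as above, beside 336 of 2015, 169 of 1715, 376 of 2780 and 875 of 2722 over the lists. Division by each position's median moved the regions with a negative difference from 86 to 58 of 92 in the genotype comparison and from 126 to 109 of 131 in the last. Depth is unknown.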
